A study of Mus musculus with 2 samples.

Results

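The 9 genes at the core of the Hedgehog signalling pathway, namely the ligands Shh, Ihh and Dhh, the receptors Ptch1 and Hhip, the transducer Smo and the transcription factors Gli1, Gli2 and Gli3, were examined for open chromatin in mouse cardiac progenitor cells (CPCs). A peak, an interval of open chromatin, was attributed to one of these genes where the gene symbol deposited beside the interval was that gene. This gave 29 of the 26232 distinct peaks of the list, and all 9 genes of 9 had at least 1, against 62.5% of the 21900 protein coding genes. The 29 peaks were unevenly spread, since Gli2 and Gli3 together held 17 of them (58.6%) and the other 7 genes 12. Peaks of Gli2, Gli3, Smo and Hhip lay at the start site of the gene. No peak midpoint lay within 1 kb of the start site of any ligand gene, of Ptch1 or of Gli1. The Gli1 peak, which was 2871 bp wide, still overlapped the Gli1 promoter.

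The assay was ATAC-seq, which uses the transposase Tn5 to cut accessible DNA and to leave sequencing adapters at the cuts. The cells were CPCs on day 5 of cardiac differentiation, grown from the mouse embryonic stem cell line E14, which carries a transgene, Tg(Nkx2-5-EmGFP), that reports the early heart factor Nkx2-5 with a green fluorescent protein. The labels give C57BL/6 as the strain and name no treatment and no knockdown. In the directed protocol of the study's methods, cells pass through BMP4, Activin A and VEGF during differentiation and then bFGF and FGF10. Those methods also give a hanging drop protocol. For the CPCs used in ATAC-seq they name neither the protocol nor a sort for the green fluorescent protein. The 2 samples were replicates of 1 group, from separate differentiations per the study's methods, and both stand behind 1 shared peak list.

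That list gives neither peak heights nor p-values, and nothing for each replicate on its own. Read depth is therefore unknown, no value below has a replicate error, and no test between conditions was possible. Peaks called in 1 replicate only are not in the list, and the list may be incomplete as used here, so a promoter without a peak is not thereby shown to be closed. Of 6 marker genes of cardiac progenitors, 5 had a peak and 4 had one within 1 kb of the start site, where the shares of all protein coding genes were 62.5% and 50.1%, so that these counts say little about the identity of the cells. Markers of other cells were also among the peaks, with all 4 genes of endoderm and notochord, both neural genes and 1 of 2 pluripotency genes carrying at least 1. The cardiac gene Hand2 and the pluripotency gene Pou5f1 had none. The part of other cells in the Hedgehog peaks was not tested.

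Hedgehog ligands are secreted, lipid-modified proteins that act on neighbouring or distant cells. Without ligand, Ptch1 keeps the membrane protein Smo inactive. Binding of ligand releases Smo, which then acts at the primary cilium to keep the GLI proteins from being processed into repressors. In the embryo, Shh from the pharyngeal endoderm acts on progenitors of the second heart field, and the pathway is needed for septation of the outflow tract and the atria. Gli1 and Ptch1 are general target genes of the pathway, Gli2 acts mainly as its activator and Gli3 mainly as its repressor.

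Sequence is shown for a selection of the peaks, which were examined for short motifs. The motifs were the GLI core CCACCCA, the GATA core AGATAA and the LIM-homeodomain core CTAATG, searched on both strands in the central 300 bp of each peak. The first contains the CACCC box that factors of the KLF and SP families also bind, and a match describes letters, not a bound site. All sequences are from mm9, written 5′ to 3′ on the strand of the named gene, and capitals mark matches. Printed are stretches of the Shh peak, of the 5 peaks with a GLI core, of a Gli2 peak and of the Gli3 start. Other peaks with a LIM-homeodomain or GATA core are not printed. The only peak of Shh, the best studied ligand, held none of the 3 motifs in its central 300 bp. Only these 300 bp of the 1066 bp peak follow.

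Shh upstream peak, chr5:28796298-28796597, minus strand: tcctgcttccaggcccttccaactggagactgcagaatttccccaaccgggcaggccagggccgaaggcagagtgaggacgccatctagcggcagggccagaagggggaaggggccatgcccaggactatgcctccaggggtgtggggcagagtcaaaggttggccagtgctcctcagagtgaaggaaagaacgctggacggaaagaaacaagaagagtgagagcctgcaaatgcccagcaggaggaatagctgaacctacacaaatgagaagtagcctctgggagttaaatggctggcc

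The GLI core occurred in the central 300 bp of 5 of the 29 peaks (17.2%), compared with 9.39% of all peaks in the list. These 5 peaks belonged to Ihh, Smo, Gli1, Gli2 and Hhip, and 100 bases around each match are shown with only the GLI core in capitals. A longer form, GACCACCCA, closer to the full GLI recognition sequence and added after the first motif counts were seen, was found in 1 of the 29 peaks, that of Smo, and in 100 of all peaks (0.381%). In the Smo line it reads on the opposite strand, as the capitals with the next 2 letters. The Hhip line also holds the GATA core, in lower case.

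Ihh peak, chr1:75018538-75018637, minus strand: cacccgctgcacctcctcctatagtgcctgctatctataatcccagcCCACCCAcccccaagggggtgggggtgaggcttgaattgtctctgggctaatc

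Smo peak, chr6:29669027-29669126, plus strand: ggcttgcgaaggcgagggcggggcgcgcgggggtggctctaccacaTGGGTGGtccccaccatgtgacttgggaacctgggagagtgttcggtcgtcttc

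Gli1 peak, chr10:126777059-126777158, minus strand: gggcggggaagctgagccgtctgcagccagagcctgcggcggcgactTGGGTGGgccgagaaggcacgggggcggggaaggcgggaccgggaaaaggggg

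Gli2 peak, chr1:120901073-120901172, minus strand: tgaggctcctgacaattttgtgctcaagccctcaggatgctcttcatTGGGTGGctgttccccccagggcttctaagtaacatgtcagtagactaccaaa

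Hhip peak, chr8:82573308-82573407, minus strand: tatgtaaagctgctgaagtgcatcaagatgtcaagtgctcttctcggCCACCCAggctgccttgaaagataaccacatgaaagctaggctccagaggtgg

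The LIM-homeodomain core, of the kind that Isl1 binds, and the GATA core occurred together in 1 of the 29 peaks. Singly they occurred in 6.54% and 9.50% of all peaks, and the share of all peaks with both was not counted. The peak with both was the first peak of Gli2 upstream of its start site peak, and its central 300 bases follow. For Gli3, the 250 bases before the first annotated start site are given, since they lie under its widest peak. They hold a GLI core outside the central 300 bp of that peak, and Gli3 was the only one of the 9 genes with this motif in that stretch, where 8.03% of all protein coding promoters hold it.

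Gli2 upstream peak, chr1:120967854-120968153, minus strand: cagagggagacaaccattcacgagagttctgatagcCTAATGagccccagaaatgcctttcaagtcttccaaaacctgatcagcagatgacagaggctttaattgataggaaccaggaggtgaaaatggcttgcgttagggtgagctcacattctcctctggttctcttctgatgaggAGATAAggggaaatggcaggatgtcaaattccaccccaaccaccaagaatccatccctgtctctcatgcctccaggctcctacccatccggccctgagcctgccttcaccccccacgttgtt

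Gli3 upstream of start, chr13:15554818-15555067, plus strand: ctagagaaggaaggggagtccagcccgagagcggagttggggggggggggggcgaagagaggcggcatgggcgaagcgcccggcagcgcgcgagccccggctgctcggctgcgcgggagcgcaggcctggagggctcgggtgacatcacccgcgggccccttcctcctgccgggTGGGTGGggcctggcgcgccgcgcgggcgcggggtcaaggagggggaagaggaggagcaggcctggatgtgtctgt

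In all, the 9 genes averaged 3.22 peaks, against 1.71 for the 15349 genes with a peak and 1.07 for all protein coding genes. Gli2 and Gli3 raised this mean, since they held 17 of the peaks and the other 7 genes held 12. Of the 9 genes, 4 had 3 or more peaks, namely Ptch1, Hhip, Gli2 and Gli3, against 10.3% of protein coding genes. Many of the marker genes also had 3 or more, with counts given below. The 8 peaks of Gli2 and the 9 of Gli3 were the highest counts of the 9 genes, and 0.379% of protein coding genes, or 83, had 8 or more and 0.205%, or 45, had 9 or more. Both genes also have wide spaces around them, with values given below, and the part of these spaces in the counts was not tested.

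**Figure D1:**
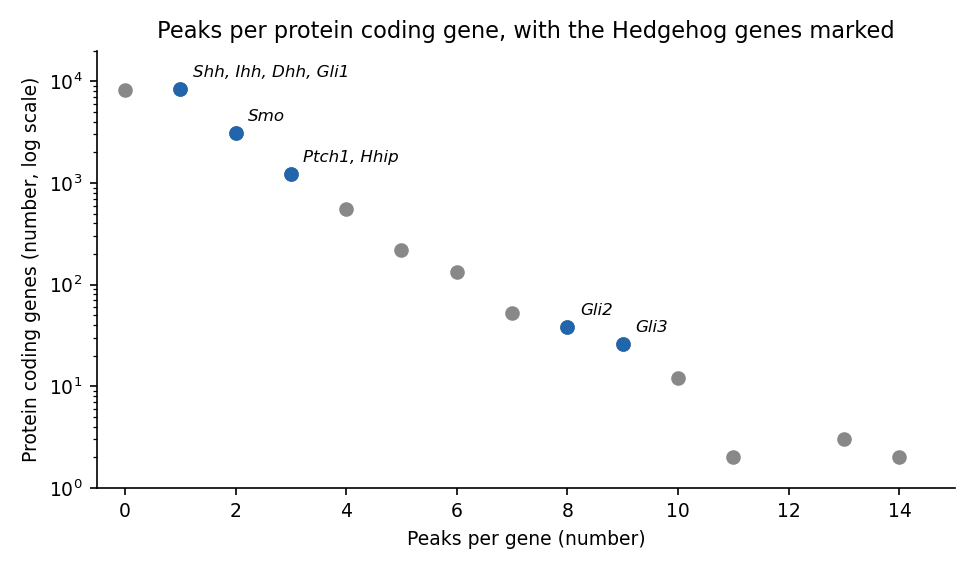
Number of protein coding genes (vertical axis, log scale) against the number of peaks assigned to a gene (horizontal axis), with the numbers that hold a Hedgehog gene in blue and named. Gli2 with 8 peaks and Gli3 with 9 lie in the tail, and Shh, Ihh, Dhh and Gli1 have 1 peak, like 8346 of all protein coding genes.

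Distances are given from the assigned start site to the midpoint of the peak, negative where the peak is upstream. By these distances 4 of the 29 peaks (13.8%) lay within 1 kb of the start site, and 5 (17.2%) lay farther out but within 10 kb. Another 12 (41.4%) were at 10 to 50 kb, and the last 8 (27.6%) were farther than 50 kb. In the whole list 44.9% of peaks lay within 1 kb, and 41.4% lay beyond 10 kb, where 20 of the Hedgehog peaks were found. The median absolute distance was 30167 bp (95% interval 8424 to 49203 bp, over peaks), against 4154 bp in the whole list. Gli2 and Gli3 supplied 15 of the 20 peaks beyond 10 kb. Of the 25 peaks outside 1 kb, 16 were upstream of the start site, and in the list 44.2% of such peaks were upstream.

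**Figure D2:**
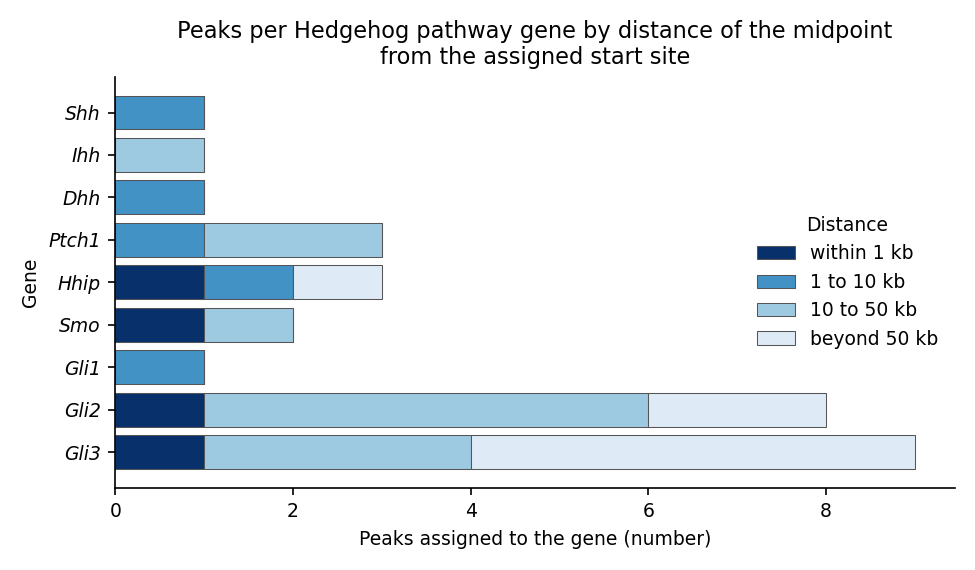
Number of peaks assigned to each gene (bar length), divided by the distance of the peak midpoint from the assigned start site (shades). Gli2 and Gli3 carry 8 and 9 peaks, mostly beyond 10 kb, and Smo, Hhip, Gli2 and Gli3 each have 1 peak within 1 kb.

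The 3 ligand genes each had a single peak, and all 3 peaks lay upstream, in an intron of a neighbouring gene. None of the 3 promoters, taken as the 5′-most protein coding start site with 500 bp on either side, was overlapped by a peak. Their surroundings differed, with 0.452 peaks per 100 kb in the space between the neighbouring coding start sites for Shh, 0.901 for Ihh and 5.43 for Dhh, against 0.988 in the list as a whole.

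Shh (NM_009170, chr5:28783355-28793641, minus strand), the ligand that patterns the neural tube, limb and pharyngeal arches, had its peak at chr5:28795915-28796980. It was 1066 bp wide and lay at -2806 bp, with its near edge 2274 bp from the start site. It fell in an intron of the non-coding RNA genes 9530036O11Rik and Gm17493, which overlap Shh on the opposite strand. No other peak lay between the start sites of the coding genes on either side, a stretch of 221 kb. On the other side of the Shh start site, the next peak was 150086 bp away and was assigned to Rbm33, and only 6 peaks lay within 500 kb. Lmbr1, whose intron holds the well known limb enhancer of Shh, had 1 peak, at its own start site, and 0 peaks with a midpoint in an intron.

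Ihh (NM_010544, chr1:74991891-74998246, minus strand), the ligand of cartilage and gut, had its peak at chr1:75018140-75018854. It was 715 bp wide, narrower than most peaks of the list, and lay at -20250 bp in an intron of Nhej1, a DNA repair gene. Measured to the nearest annotated coding start site it belonged to Nhej1, at -3011 bp, so Ihh is the only one of the 9 genes that lost its peak under that assignment. The Ihh promoter was CpG-rich (GC content 72.2%, observed over expected CpG 0.77) and had no peak, although 42 peaks of any gene lay within 500 kb. CpG-rich here means a GC content of at least 50% and a CpG ratio of at least 0.6.

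Dhh (NM_007857, chr15:98723462-98728971, minus strand), the ligand of the testis and of peripheral nerve sheaths, had its peak at chr15:98734818-98735898, in an intron of Lmbr1l. It was 1081 bp wide, exactly the median of the list, and lay at -6386 bp. Its territory, the space between the neighbouring coding start sites, was 36.8 kb and held 1 more peak, at the start of Lmbr1l. Within 100 kb of the Dhh start site there were 13 peaks, the most around any of the 9 genes, against 1 around Shh. Around the other members the count ran from 2, at Hhip, to 8, at Gli2. A stretch of that length, 100 kb to either side, would hold a mean of 1.98 peaks at the density of the list. That mean spreads peaks evenly, although 44.9% of the list lay within 1 kb of a start site.

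Both membrane proteins that bind ligand and limit its action had 3 peaks, with contrasting positions. Ptch1 had none at its start site, and Hhip had a wide one there.

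Ptch1 (NM_008957, chr13:63610261-63674474, minus strand) encodes the receptor that holds Smo inactive. Its most proximal peak, chr13:63668749-63669999, was 1251 bp wide and lay at -2330 bp, in an intron of the longer transcripts. The edge of that peak was 1705 bp from the assigned start site, and no annotated start of the 4 Ptch1 transcripts was under a peak, the closest being 1921 bp away. This peak had a CpG ratio of 0.88, the highest of the 25 Hedgehog peaks outside 1 kb. The other peaks were at chr13:63629369-63630440, 1072 bp wide and in an intron at +37139 bp, and at chr13:63710969-63711609, 641 bp wide and intergenic at -36520 bp, with a LIM-homeodomain core. The Ptch1 promoter was CpG-rich at the 5′-most start site (65.3% GC, CpG ratio 0.85) and at the assigned one (69.8% GC, CpG ratio 0.96), and neither was overlapped.

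Hhip (NM_020259, chr8:82490014-82581905, minus strand) encodes a membrane protein that captures ligand and does not signal. Its start site peak, chr8:82580974-82582790, was 1817 bp wide at +26 bp and covered the start of transcript Hhip-001. A second, chr8:82573106-82573861, was 756 bp wide and lay at +8424 bp in an intron, with both a GLI and a GATA core. The third, chr8:82777284-82777933, was 650 bp wide and intergenic at -195701 bp, the farthest of all 29. These 3 were the only peaks in a territory of 782 kb, which at 0.384 per 100 kb was the sparsest among the 9 genes.

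Smo (NM_176996, chr6:29685694-29711365, plus strand) encodes the membrane protein that passes the signal into the cell, and had 2 peaks. The one at chr6:29684884-29686522 was 1639 bp wide, covered the annotated start site and was centred at +205 bp. The other, at chr6:29668646-29669381, was 736 bp wide and intergenic at -16484 bp, and is the peak with the long GLI form printed above.

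**Figure D3:**
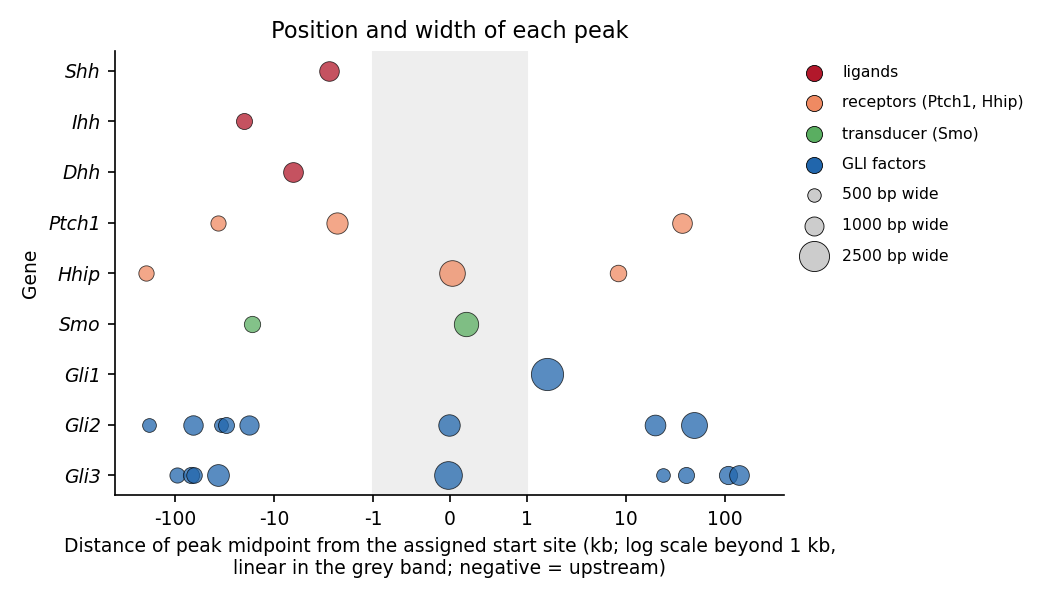
Distance of each of the 29 peak midpoints from the assigned start site (horizontal axis in kb, logarithmic beyond 1 kb and linear in the grey band), by gene, with circle area proportional to peak width and colour by role. The 3 ligand genes have a single upstream peak each, and the peaks of Gli2 and Gli3 run from -183380 bp to +139173 bp.

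The GLI factors carry the signal to the genome. Gli1 had 1 peak, Gli2 had 8 and Gli3 had 9.

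Gli1 (NM_010296, chr10:126766945-126778645, minus strand) is, like Ptch1, a gene whose transcription is itself a readout of the pathway. Its peak, chr10:126775620-126778490, was 2871 bp wide, wider than 98.6% of all peaks in the list and the widest of the 29. The midpoint lay at +1581 bp in an intron, and the peak ended 146 bp short of the assigned start site. It did cover the start of a further annotated transcript, and it overlapped the Gli1 promoter. The neighbouring peak of Inhbe lay at -9268 bp.

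Gli2 (NM_001081125, chr1:120730709-120950196, minus strand) had 1 peak at its start site, 5 upstream and 2 downstream. The start site peak, chr1:120949567-120950843, was 1277 bp wide at -8 bp and covered 8 of the 9 annotated transcript starts. Downstream, in introns, lay chr1:120929928-120931115 at +19675 bp, 1188 bp wide, and chr1:120900064-120901923 at +49203 bp, 1860 bp wide and with a GLI core. The latter was the widest peak of the 20 beyond 10 kb.

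The upstream peaks of Gli2 were all intergenic. The nearest, chr1:120967489-120968518 at -17807 bp, was 1030 bp wide. A close pair followed, chr1:120980010-120980717 at -30167 bp, 708 bp wide, and chr1:120984029-120984559 at -34097 bp, 531 bp wide, with 3311 bp between them. All 3 held a LIM-homeodomain core, as did chr1:121016066-121017117 at -66395 bp, 1052 bp wide. The farthest, chr1:121133314-121133839 at -183380 bp, was 526 bp wide and held none of the 3 motifs in its central 300 bp. It lay 933 bp from a peak assigned to Inhbb, which was 183630 bp from the Inhbb start site, so that the change of symbol fell midway between the genes.

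The deposited symbols did not give Gli2 every peak inside its gene. The gene body of 219 kb overlapped 6 peaks, and 3 of these carried the symbol of the microRNA gene Mir6346, which lies within Gli2. They were chr1:120879139-120880610, 1472 bp wide and 70322 bp downstream of the first Gli2 start site, chr1:120832415-120833319, 905 bp wide and 117329 bp downstream, and chr1:120774321-120775317, 997 bp wide and 175377 bp downstream. The first of them covered the start of the remaining transcript, Gli2-009, so that every annotated Gli2 start was under a peak. Assigned to the nearest coding start site, Gli2 had 11 peaks and exceeded the 9 of Gli3.

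Gli3 (NM_008130, chr13:15555068-15821859, plus strand) had 4 peaks upstream, 1 at its start site and 4 in introns. The start site peak, chr13:15554466-15556590, was 2125 bp wide at -29 bp and covered all 4 annotated transcript starts. The upstream peaks were chr13:15518180-15519490 at -36722 bp, 1311 bp wide and with a LIM-homeodomain core, chr13:15490384-15491058 at -64836 bp, 675 bp wide, chr13:15486969-15487700 at -68222 bp, 732 bp wide, and chr13:15459774-15460412 at -95464 bp, 639 bp wide. The middle 2 were 2683 bp apart, the closest pair of peaks of any of the 9 genes. In introns lay chr13:15579075-15579594 at +23778 bp, 520 bp wide and the narrowest of the 29, and chr13:15596166-15596883 at +40968 bp, 718 bp wide. Farther into the gene lay chr13:15662640-15663562 at +107544 bp, 923 bp wide and with a GATA core, and chr13:15694192-15695268 at +139173 bp, 1077 bp wide and with a LIM-homeodomain core.

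The territories of Gli2 and Gli3 differed in density although both are long. Between the neighbouring coding start sites, 794 kb around Gli2 held 19 peaks, or 2.39 per 100 kb, and 1376 kb around Gli3 held 12, or 0.872 per 100 kb. Each count includes a peak at the start site of a bounding gene, 109 bp from that start at Gli2 and 10 bp at Gli3. Of the 12 around Gli3, 9 carried the symbol Gli3, against 8 of the 19 around Gli2. Outside 1 kb the median width was 1030 bp for Gli2 and 725 bp for Gli3.

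**Figure D4:**
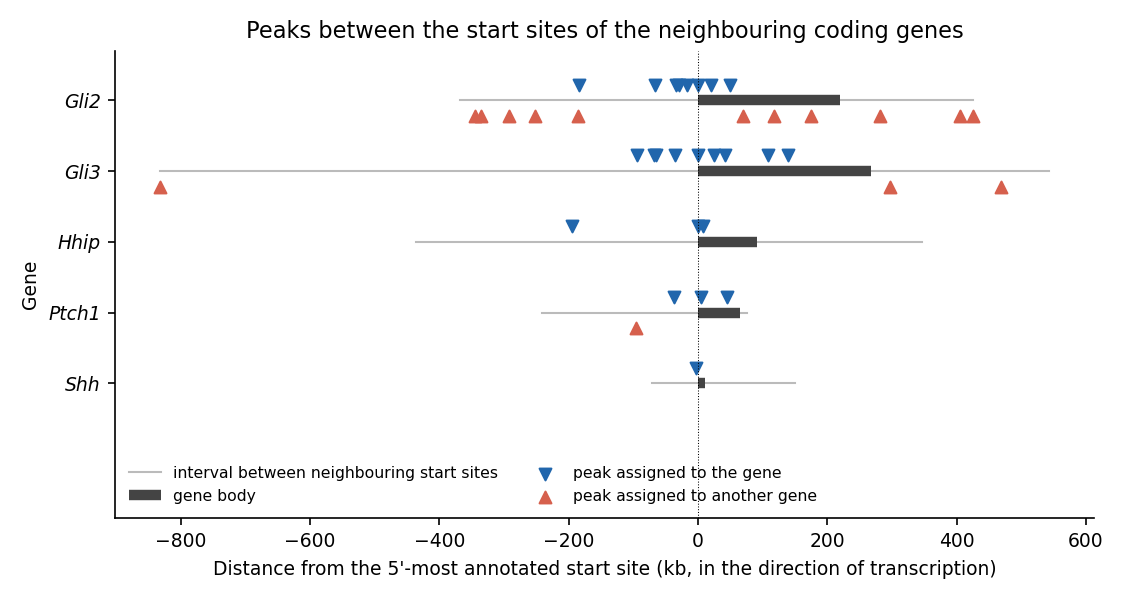
Peaks between the start sites of the coding genes on either side of Gli2, Gli3, Hhip, Ptch1 and Shh, in kb from the 5′-most annotated start site in the direction of transcription, with blue triangles for peaks assigned to the gene and red ones for peaks assigned to another. The Gli2 gene body (black bar) holds 3 red triangles, the peaks named for Mir6346, and the Shh and Hhip intervals hold only the gene's own peaks, 1 and 3.

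CpG content, which goes with open promoters in most cells, was set beside the peaks. Of the 5 genes with a CpG-rich promoter, those of Smo, Gli2 and Gli3 overlapped a peak and those of Ihh and Ptch1 did not, whereas 89.4% of all CpG-rich promoters did. Of the 4 other promoters, those of Gli1 and Hhip overlapped a peak, against 24.8% of other promoters in the genome. All 4 had more than 50% GC and missed the class by their CpG ratio. It was 0.59 for Hhip, 0.55 for Shh, 0.54 for Gli1 and 0.48 for Dhh against a limit of 0.6, so that Hhip missed it narrowly. By peak midpoints, 4 of the 9 genes had a peak within 1 kb of the start site, against 50.1% of protein coding genes. Counts over 9 genes are too small to be read as a difference from these shares.

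Widths followed position. The 4 start site peaks ranged from 1277 to 2125 bp, and the median of the 20 peaks beyond 10 kb was 725 bp (95% interval 650 to 1052 bp, over peaks), against 880 bp (874 to 887 bp) for all peaks of the list beyond 10 kb. These intervals overlapped. Over all 29 peaks the median was 1030 bp (715 to 1188 bp), and that of the list was 1081 bp. Set against the quartiles of all peaks in the same distance class, 12 were narrower, 10 were inside and 7 were wider. Width in such a list depends on the caller and on the depth of the replicate whose coordinates were kept as well as on the chromatin.

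**Figure D5:**
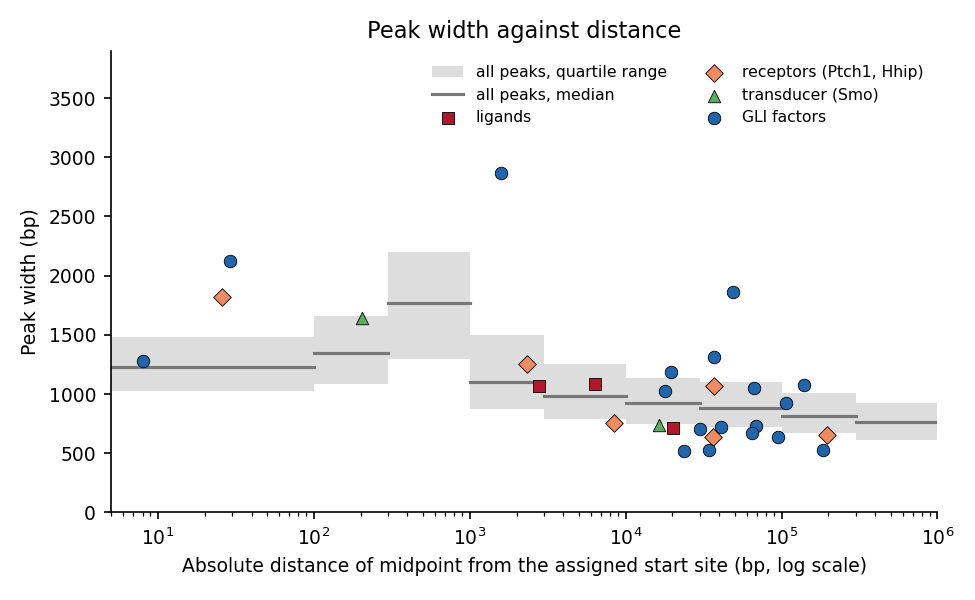
Peak width (bp) against the absolute distance of the midpoint from the assigned start site (bp, log scale), with symbols by role and, in grey, the quartile range and median of all peaks in bins of distance. The Gli1 peak, 2871 bp wide at 1581 bp, stands above the quartile range of its bin, as does the Gli2 peak of 1860 bp, and several distal peaks of Gli2 and Gli3 lie below theirs.

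The motifs were also counted by distance. The GLI core occurred in 3 of the 20 Hedgehog peaks beyond 10 kb (15%), where the share in the list was 10.4%. The LIM-homeodomain core occurred in 7 of the 29 peaks (24.1%), against 6.54% of all peaks. All 7 lay beyond 10 kb, among 20 such peaks, and in the list 10.3% of peaks beyond 10 kb held it. By gene they were 4 of the 7 Gli2 peaks beyond 10 kb, 2 of the 8 Gli3 peaks beyond 10 kb and 1 peak of Ptch1. The GATA core occurred in 3 of the 29 peaks (10.3%), against 9.50% of all peaks, and in 2 of the 20 beyond 10 kb, where the share in the list was 15.9%. The peaks of 1 gene are not independent of one another, and none of these shares was tested.

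Other genes of the pathway were examined by role, from a list of 38 genes. Of these, 33 had at least 1 peak and 27 had one within 1 kb of the start site, with 78 peaks in all. The shares for all protein coding genes were 62.5% and 50.1%. For the release of ligand, 4 of 6 genes had a peak, led by Hhat, the enzyme that attaches palmitate to the ligands, and Scube1, a secreted protein, with 3 each. Among receptors and coreceptors, 4 of 5 had one, led by Cdon, a coreceptor with 4 peaks, all beyond 10 kb of the assigned start site, although the one at -30507 bp overlapped the promoter at its 5′-most annotated start. The 1 gene without a peak by symbol, Boc, a further coreceptor, had its promoter overlapped by a peak that carried the symbol Mir3081. Gas1 and Lrp2, both coreceptors, had 2 each.

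Of the genes of transduction and of the cilium, 15 of 16 had a peak and 13 had one within 1 kb of the start site. CpG-rich promoters, which overlapped a peak in 89.4% of cases in the whole genome, were found at 12 of the 16. They were also found at 4 of the 6 genes of ligand release, 4 of the 5 receptors and coreceptors and 6 of the 11 target genes. Not every promoter of these other groups could be classed. In the genome 9847 promoters were CpG-rich and 12249 were not. The part of CpG content in the peak counts was not tested. Sufu, which holds GLI proteins in the cytoplasm, and Kif7, a kinesin of the cilium tip, had 3 each. Among target genes 10 of 11 had a peak, 8 had one within 1 kb of the start site and 7 had 3 or more, against 10.3% of all protein coding genes with 3 or more. Foxa2, a factor of the floor plate and endoderm, led them with 7, and Foxl1, Ccnd1 and Mycn had 5 each. Counts of 3 or more were not particular to target genes. Among the markers they were found at 5 of 6 genes of cardiac progenitors and 3 of 4 of endoderm and notochord. They were also found at 2 of 2 neural genes and 0 of 2 pluripotency genes. Foxa2 is in both the target list and the endoderm list. Target genes accounted for 36 of the 78 peaks, and many of them also respond to other pathways.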

How the data were processed

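Per the study's methods, the authors mapped reads to mm9 with Bowtie2, filtered them with SAMtools, removed duplicates with Picard (version 1.136), called peaks per replicate with MACS14, dropped blacklisted regions and kept peaks that overlapped between replicates by at least 1 bp with bedtools (version 2.15). Nearest start sites came from HOMER, a step stated for ChIP-Seq peaks. Apart from the shift of reads at peak calling, no correction for the Tn5 cut position is described. Versions are from the submitters' processing notes. The deposited list has 6 columns and no header. Its values are positions and a signed distance to a start site in bp, with no score, count or signal, so depth and replicate error are unknown.

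The 26429 lines held 26232 distinct intervals, each counted once, read as BED and given 1-based. Gene models were GENCODE vM1 on NCBIM37, which is mm9. A RefSeq gene table of GRCm38.p6 was used for names only and held the accession of 96.7% of intervals. Python 3.11.15, numpy 2.4.6, scipy 1.17.1, pysam 0.24.0 and matplotlib 3.10.9 were used. Intervals of medians are 95% binomial order statistic intervals over peaks, taken as independent, which peaks of 1 gene are not. The motif search and these intervals were tested on simulated data.

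All 9 members are named with every peak. Of other pathway genes, the 2 with the most peaks per role are named, ties included, and those with none are given by count. Other symbols are named where their peaks lie in or beside a member. Boc, Mir3081, Inhbe, Inhbb, Rbm33, Lmbr1, Nhej1, Lmbr1l and the non-coding RNA genes were named after their values were seen. The members, lists and motifs were chosen with earlier results of these data known. Alternatives were other widths, start site windows, gene assignments and ways of counting. Isl1 knockdown samples were not analysed here.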

Additional observations from a re-analysis of the deposited data

How the results depend on the processing

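Of 33 alternative settings over 6 results, 30 left a count at or within a factor of 1.5 of its value or a median within its 95% interval, and 3 did not. The limit is wide for small counts, and 9 to 6 or 4 to 6 genes lie on it. All 3 came from keeping only peaks wider than the list median, which lowered the Hedgehog peaks from 29 to 9, raised their median width to 1639 bp and lowered their median absolute distance to 1581 bp. The setting removes narrow peaks, and distal ones are narrower. It left 6 genes with a peak and 28 of the 38 other pathway genes. Assignment to the nearest coding start site gave 32 peaks, 8 genes with a peak, a median width of 1019 bp and a median distance of 26845 bp. A start site window of 2500 bp gave 6 genes with a start site peak, Ptch1 and Gli1 being added, and counting any annotated start under a peak gave 5, in place of 4. Counting every line, requiring 500 bp or merging neighbouring peaks changed none of the 6 values. For the Hedgehog results these settings had nothing to act on. The narrowest Hedgehog peak was 520 bp wide, and the closest pair was 2683 bp apart against a merging limit of 500 bp. The Hedgehog peaks also filled 29 lines for 29 intervals. Their part in the 30 unchanged settings is therefore no sign of stability. No paired analysis was possible because the list holds no value for a single replicate, and for the same reason neither replicate could be left out.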

Other observations

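Each GLI gene lies near a gene for an inhibin or activin beta subunit, secreted ligands of the TGF-beta family. Inhbb, near Gli2, carried 6 peaks, Inhba, near Gli3, carried 4, Inhbe, near Gli1, carried 1 and Inhbc carried 0. Between the coding start sites on either side of Gli2, 5 peaks were assigned to Inhbb.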
